A study of Rattus norvegicus with 311 samples.

Results

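Rat hepatocytes grown together with non-parenchymal liver cells were compared with hepatocytes grown alone, one day after plating. Every library of day 1 was used: 52 of the 155 co-culture libraries in the series against 52 of its 156 monoculture libraries. The members were chosen by culture and day as the labels give them, and no measured value entered the choice. The cells were primary cells of male Sprague Dawley rats, bought from a supplier and seeded on collagen-coated 96-well plates, and the non-parenchymal cells had been enriched by centrifugation, lysis of red cells and a density gradient. Each culture held 4 libraries of vehicle and 4 of each of 12 treatments, which were 3 doses each of 4 compounds given for the day before lysis. The treatments were phenobarbital at 0.1, 1 and 10 mM, ketoconazole at 1, 10 and 30 µM, GW7647 at 0.01, 0.1 and 1 µM, and gemfibrozil at 10, 100 and 1000 µM. Ketoconazole, an antifungal drug, blocks several cytochromes P450. Gemfibrozil is a lipid-lowering fibrate and, like the synthetic agonist GW7647, a ligand of PPAR-alpha, and the barbiturate phenobarbital induces drug metabolism through CAR. Each compound-dose was present once per culture on plates 1, 3, 5 and 7, which gave 52 matched pairs of wells. The age of the rats is not given in the sources used here, nor is the ratio of the cell types seeded.

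The liver's non-parenchymal cells are mainly sinusoidal endothelial cells, Kupffer cells and stellate cells. Sinusoidal endothelial cells line the hepatic capillaries and clear waste molecules, Kupffer cells are the resident macrophages, and stellate cells store vitamin A and become matrix-producing myofibroblasts after injury or in culture. Isolated hepatocytes lose much of their drug-metabolising expression within days of plating, and inflammatory cytokines raise their acute phase proteins and lower many of their cytochromes P450. The comparison asks which transcripts the added cells bring or alter when all matched wells are read together.

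Transcripts were counted with TempO-Seq, which ligates pairs of detector oligonucleotides on their target and sequences the product, so that only targeted genes have a value. Total counts ran from 3383930 to 10962400 with a median of 6629270 in monoculture and from 3568910 to 12272600 with a median of 6805380 in co-culture. The co-culture well was the deeper one in 27 of 52 pairs, and 12562.5 and 12499.5 probes were detected in the median library of monoculture and co-culture. The labels call the 4 libraries of a group biological replicates without naming separate animals, so p-values reflect only how far these libraries spread. Plate entered the fits as a block, and standard errors and p-values take the wells of a plate as independent. They do not fully count how the culture difference varied between plates. In bulk libraries fewer cells of a type and less RNA per cell cannot be told apart. Every monoculture well of day 1 lay in an odd plate column and every co-culture well in an even one, so culture and column side cannot be told apart on day 1. On day 7 plate 3 had the co-culture in odd columns. There the summed level of 23 endothelial probes had a median of 351 CPM (counts scaled to library size, range 106 to 456) in 13 monoculture wells. In 13 co-culture wells it was 409 CPM (range 224 to 598). The endothelial gene Flt4, 1 of the 23, alone had day 7 medians of 172 CPM in monoculture and 166 CPM in co-culture over all plates.

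The wells labelled vehicle on plate 3 went against their labels. Of the genes found higher in co-culture over all wells, 14.2% were above 0 in this pair, against a lowest share of 44.4% and a median of 82.1% in the other 51 pairs. None of the genes found lower were below 0 in it, while the lowest share in the other 51 pairs was 19.4%. In this pair the log2 ratio of co-culture over monoculture was -0.98 for summed endothelial markers, -1.66 for stellate and mesenchymal markers and 0.99 for hepatocyte metabolic genes. The pair was kept under its labels, and values below include it unless said otherwise. Over 67 of the genes named here, fold changes moved by at most 0.0849 on the log2 scale when it was left out. The 57 of them that were called were called again. The pair was singled out because it went against the calls of these same wells, so fits without it, here and below, do not test those calls.

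With compound-dose and plate as blocks, 162 of 10220 probes were higher in co-culture (1.59%) and 31 were lower (0.303%), by edgeR's quasi-likelihood test at a Benjamini-Hochberg adjusted p under 0.05. Lysozyme, endothelial genes, chemokines, a set of matrix genes and some acute phase genes stood among the higher ones, and hepatocyte enzymes and transporters among the lower ones. The differences were small: the median size among the 193 called probes was 0.62 on the log2 scale, 12 exceeded 1 upwards and 0 exceeded 1 downwards. Over all probes tested the median log2 fold change was -0.01 and 45.6% were above 0. The sign was the same on all 4 plates for 146 of the 162 higher and 28 of the 31 lower probes. These are the wells that chose the probes, and the share over all probes tested is not given here. Without the vehicle pair of plate 3 the counts were 200 higher and 48 lower. All 193 probes were called again, which the choice of an opposing pair favours. The counts depended on the plates, with 34 called without plate 7, 65 without plate 5, 153 without plate 1 and 259 without plate 3. Wells of a plate may share a cell preparation. Counts were also summed per plate and culture, the most cautious replicate. In these sums 0 of 13788 probes were called by edgeR's quasi-likelihood test (0%), with 973 at an unadjusted p under 0.05. All 193 kept their direction, but the sums hold the same libraries that chose them, so this is no separate support.

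Lysozyme Lyz2, an antibacterial enzyme of macrophages and other myeloid cells, had the largest fold change of all called probes. Its level was 0, 1.96 and 10.6 CPM (lowest, median, highest of 52) in monoculture and 1.79, 9.50 and 39.3 CPM in co-culture. The ranges overlapped, but the co-culture well was the higher one in 48 of 52 pairs. The log2 fold change was 2.21 ± 0.20 (SE) with an adjusted p of 2.07e-14 by edgeR's quasi-likelihood test. The mean log2 difference of Lyz2 was 1.94, 0.56, 2.95 and 2.88 on plates 1, 3, 5 and 7, with an SD of 1.11 over these plates. It was above 0 in 13 of 13 compound-doses, from 1.40 with GW7647 at 0.01 µM to 2.82 with phenobarbital at 1 mM.

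The other macrophage genes did not share this difference. Of 17 macrophage probes tested, Lyz2 was the single one that passed, 11 were above 0 and the list's median log2 fold change was 0.06, beside -0.01 over all probes. The summed level of the list had a median of 414 CPM in monoculture (207 to 1068) and 408 CPM in co-culture (166 to 968), and co-culture was higher in 24 of 52 pairs. Kupffer cell genes were present in the monoculture wells at a like level. Clec4f, a galactose-binding receptor of Kupffer cells, had 8775 counts in all monoculture libraries and 8098 in all co-culture libraries. The haemoglobin-haptoglobin receptor Cd163 had a median of 9.71 CPM in both cultures and a log2 fold change of 0.07 ± 0.16 (adjusted p 0.958, edgeR quasi-likelihood). The scavenger receptor Marco had a median of 5.68 CPM in monoculture and 8.14 CPM in co-culture, with a log2 fold change of 0.07 ± 0.14 (adjusted p 0.959, edgeR quasi-likelihood). The lysosomal protein Cd68 had a log2 fold change of -0.22 ± 0.22 (adjusted p 0.876, edgeR quasi-likelihood). Plate 7 differed from the others: Marco was higher in co-culture by 1.05 and Cd163 by 0.86 on plate 7, while on plates 1, 3 and 5 the differences lay between -0.36 and -0.01 for Marco and between -0.53 and 0.03 for Cd163. Without plate 7 the fitted values were -0.22 for Marco and -0.25 for Cd163. A further 11 macrophage probes had too few counts to be tested, C1qa among them with 183 and 246 counts in all.

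**Figure D1:**
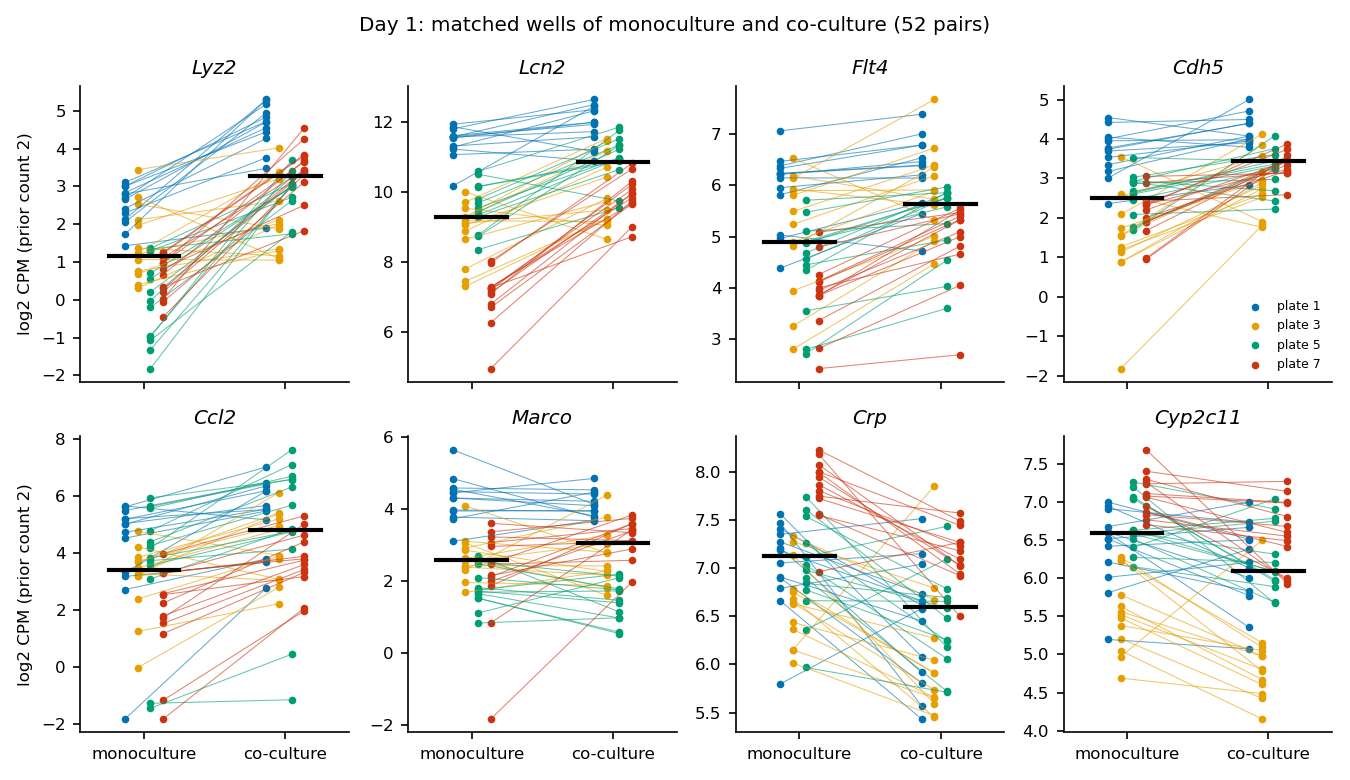
Levels of 8 genes in the matched wells of day 1. The y axis is log2 CPM with a prior count of 2, each point is 1 well, lines join the monoculture and co-culture well of the same compound-dose and plate, colours mark plates, and black bars are medians of 52 wells. Lyz2 and Ccl2 were higher in co-culture in 48 of 52 pairs each, Marco in 24, and Crp in 8.

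Endothelial genes formed the largest group of higher transcripts. Of 17 endothelial probes tested, 12 were higher in co-culture and 0 lower, all 17 lay above 0, and their median log2 fold change was 0.80. The summed level of these probes had a median of 109 CPM in monoculture (41.3 to 317) and 154 CPM in co-culture (87.8 to 420), and co-culture was higher in 46 of 52 pairs. The ranges overlapped widely, and endothelial transcripts were measured in the monoculture wells too. A further 14 probes missed the filter on low counts. Of these, 13 had more counts in co-culture, with 2363 counts in all in monoculture and 3323 in co-culture, and 0 were called when no filter was applied. They include Kdr, the main receptor for VEGF, with 376 and 550 counts, and Stab2, a hyaluronan scavenger receptor of sinusoidal endothelium, with 172 and 270 counts.

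Flt4, the VEGF-C receptor of lymphatic and sinusoidal endothelium, had the smallest p of the group. It was at 5.06, 29.5 and 134 CPM (lowest, median, highest) in monoculture and at 6.17, 49.5 and 205 CPM in co-culture. Co-culture was higher in 47 of 52 pairs although the ranges overlapped, with a log2 fold change of 0.74 ± 0.10 and an adjusted p of 1.33e-07 (edgeR quasi-likelihood). Cdh5, the adhesion molecule of endothelial junctions, was at 0, 5.40 and 23.0 CPM in monoculture and at 3.11, 10.5 and 31.8 CPM in co-culture. Its log2 fold change was 0.85 ± 0.14 (adjusted p 9.14e-06, edgeR quasi-likelihood), with co-culture higher in 45 pairs. Tek, the angiopoietin receptor, was at 0, 7.54 and 63.6 CPM in monoculture and at 4.49, 15.6 and 83.2 CPM in co-culture. Its log2 fold change was 0.83 ± 0.13 (adjusted p 9.30e-06, edgeR quasi-likelihood), with co-culture higher in 43 pairs. For all 3 genes the lowest co-culture well was above the lowest monoculture well, and the overlap was wide.

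The remaining endothelial genes that rose differed in abundance and in how firmly they passed. The junction protein Pecam1 rose by 0.86 ± 0.17 from a median of 2.24 to 4.06 CPM, and Ehd3, an endocytic trafficking protein, by 0.86 ± 0.13 from 4.61 to 7.06 CPM. The transcription factor Sox18 had a log2 fold change of 1.33 ± 0.25 at a median of 0.944 CPM in monoculture and 2.76 CPM in co-culture. The hyaluronan receptor Lyve1 had a log2 fold change of 0.78 ± 0.18 at medians of 2.69 and 5.16 CPM. A further 5 members were picked out after their values were seen: Gpr182 at 0.95, Fcgr2b, an Fc receptor of sinusoidal endothelium, at 0.92, Ramp2, a part of the adrenomedullin receptor, at 0.86, Esam, a junction adhesion molecule, at 0.74, and Egfl7, a secreted endothelial factor, at 0.38. Without plate 7 the adjusted p was 0.058 for Sox18 and 0.19 for Lyve1, and without plate 5 it was 0.066 for Lyve1 (edgeR quasi-likelihood), while Flt4, Cdh5, Tek, Ehd3 and Pecam1 passed without any 1 plate. Over the list, 5 of 20 probes tested were called without plate 7, 7 of 16 without plate 5, 10 of 14 without plate 1 and 12 of 19 without plate 3.

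Stellate and mesenchymal markers showed a partial difference. Of 10 probes tested, 3 were higher and 0 lower, with a median log2 fold change of 0.24, and the summed level was higher in co-culture in 46 of 52 pairs (median 206 and 269 CPM). The actin-binding smooth muscle protein Tagln was at 0.408, 69.3 and 343 CPM (lowest, median, highest) in monoculture and at 1.59, 118 and 341 CPM in co-culture. These ranges were nearly the same and the medians apart, and the log2 fold change was 0.73 ± 0.16 (adjusted p 0.00282, edgeR quasi-likelihood). Sparc, a collagen-binding matrix protein, rose by 0.76 ± 0.16 (adjusted p 0.00115, edgeR quasi-likelihood), and Timp1, an inhibitor of metalloproteinases, by 0.45 ± 0.11 (adjusted p 0.0145, edgeR quasi-likelihood). All 3 calls were lost without plate 7, where the adjusted p was 0.11 for Tagln, 0.42 for Sparc and 0.55 for Timp1 (edgeR quasi-likelihood). Other markers of activated stellate cells, Acta2, Col1a1 and Postn, were near the floor of the assay in both cultures. Whether their low counts come from the cells or from the probes was not tested. Acta2, smooth muscle actin, had 320 and 328 counts in all 52 libraries of monoculture and co-culture. Col1a1, a chain of type I collagen, had 1 and 8 counts, and Postn had 0 in both. Col3a1, a chain of type III collagen, was tested and had a log2 fold change of -0.02 ± 0.11 (adjusted p 0.984, edgeR quasi-likelihood).

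Genes of the extracellular matrix and its regulators had 5 of 15 probes higher and 0 lower, with a median log2 fold change of 0.36. Timp1 is among the 5 and is also on the stellate and mesenchymal list, so it is counted in both. Thrombospondin Thbs1, a matricellular glycoprotein, was at 13.9, 504 and 1196 CPM in monoculture and at 24.1, 720 and 2853 CPM in co-culture. The highest wells were co-culture wells and the low ends met, with a log2 fold change of 0.70 ± 0.16 (adjusted p 0.00421, edgeR quasi-likelihood). Basement membrane collagen Col4a2 rose by 0.52 ± 0.10, fibronectin Fn1 by 0.36 ± 0.09 and the matricellular YAP target Cyr61 by 0.36 ± 0.09. Without plate 7, 0 of 16 probes of this list were called by edgeR's quasi-likelihood test, and their median was 0.32. In that fit 32 of all 10253 probes were called higher. Among genes of the cytoskeleton and of dedifferentiation, 3 of 24 probes were higher and 0 lower, with a median of 0.19. They were tropomyosin Tpm1 at 0.75 ± 0.20, the calcium-binding protein S100a4 at 0.50 ± 0.13 and the actin crosslinker Flna at 0.32 ± 0.09, and without plate 7 their adjusted p was 0.31, 0.14 and 0.16 (edgeR quasi-likelihood).

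**Figure D2:**
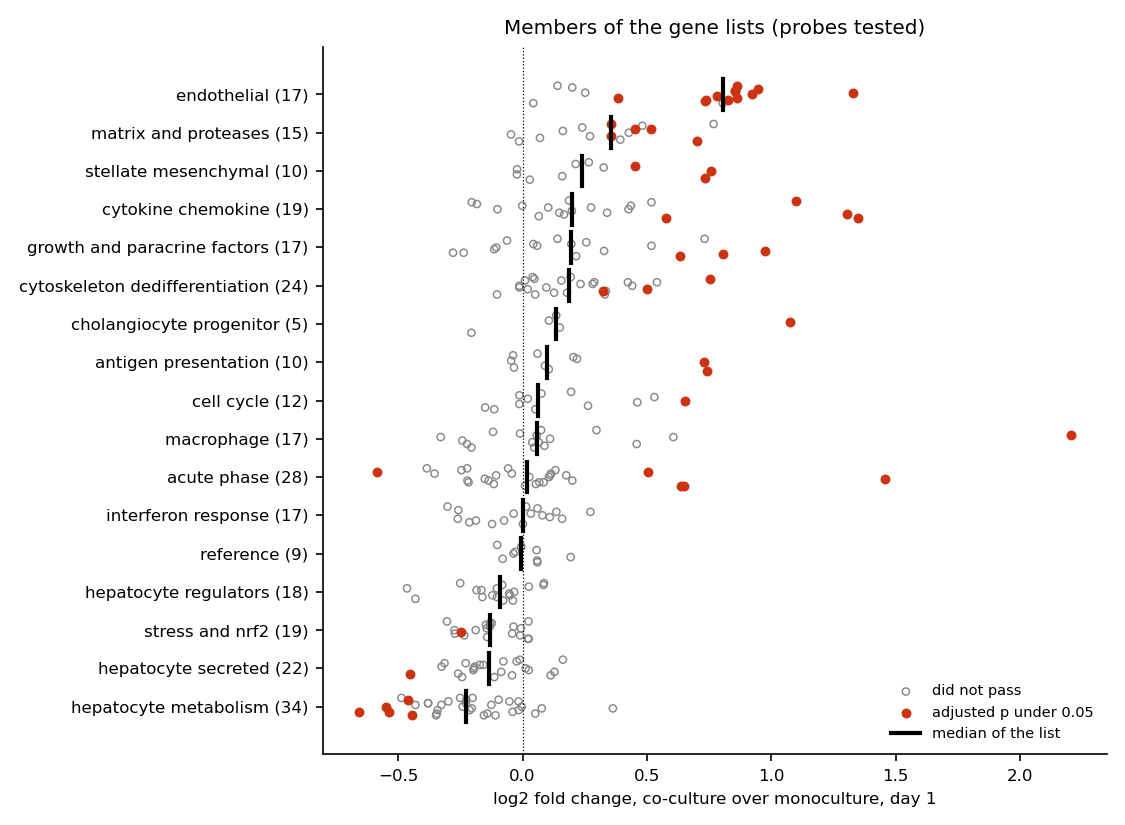
Fitted log2 fold changes of co-culture over monoculture for the probes tested in 17 gene lists, with the number of probes in brackets. Filled points have an adjusted p under 0.05, open points did not pass, and bars are medians. Endothelial probes lie above 0 throughout with a median of 0.80, while the hepatocyte metabolism list has its median at -0.23.

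Inflammatory transcripts rose in part. Of 19 cytokine and chemokine probes tested, 4 were higher and 0 lower, with a median log2 fold change of 0.20. Ccl2, the chemokine that attracts monocytes, was at 0, 10.3 and 61.4 CPM (lowest, median, highest) in monoculture and at 0.169, 27.6 and 198 CPM in co-culture. Its co-culture well was the higher one in 48 of 52 pairs, with overlapping ranges, and the log2 fold change was 1.35 ± 0.23 (adjusted p 5.83e-05, edgeR quasi-likelihood). The mean log2 difference of Ccl2 was 1.23, 1.11, 1.40 and 1.84 on plates 1, 3, 5 and 7. Csf2, the growth factor GM-CSF, rose by 1.30 ± 0.27 from a median of 1.09 to 2.70 CPM. The monocyte chemokine Ccl7 rose by 1.10 ± 0.27 from 2.26 to 4.13 CPM, and the neutrophil chemokine Cxcl2 by 0.58 ± 0.14 from 10.9 to 19.1 CPM. Without plate 7 Ccl2 alone of the 4 was called, and the adjusted p was 0.063 for Csf2, 0.07 for Ccl7 and 0.56 for Cxcl2 (edgeR quasi-likelihood). Il6, with 85 and 37 counts in all, and Tnf, with 193 and 309 counts, were below the filter. Of 17 interferon response probes, 0 passed in edgeR's quasi-likelihood test, and their median was 0.0016.

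Acute phase genes, which the liver makes in inflammation, moved in both directions: 4 of 28 probes were higher and 1 lower, with a median of 0.02. Lcn2, a siderophore-binding protein that hepatocytes and myeloid cells make in inflammation, was at 30.4, 625 and 3910 CPM in monoculture and at 399, 1837 and 6394 CPM in co-culture. Its co-culture well was higher in 46 of 52 pairs, and the low end of the co-culture wells stood well above that of the monoculture wells. The log2 fold change was 1.46 ± 0.16 (adjusted p 3.61e-11, edgeR quasi-likelihood), with a fitted value of 1.01 without plate 7. Plate differences of Lcn2 were 0.48, 1.11, 1.41 and 2.88 on plates 1, 3, 5 and 7, with an SD of 1.02 over these plates. Orm1, alpha-1-acid glycoprotein, was at 665, 5121 and 11776 CPM in monoculture and at 2532, 6536 and 22714 CPM in co-culture, with a log2 fold change of 0.65 ± 0.11 (adjusted p 1.77e-05, edgeR quasi-likelihood). The protease inhibitor A2m rose by 0.64 ± 0.11 and the lipopolysaccharide-binding protein Lbp by 0.51 ± 0.10, and without plate 7 the adjusted p of A2m was 0.14 (edgeR quasi-likelihood).

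C-reactive protein, Crp, went the other way. It was at 55.3, 139 and 299 CPM in monoculture and at 42.9, 96.8 and 231 CPM in co-culture, and the co-culture well was the lower one in 44 of 52 pairs. Ranges overlapped. The log2 fold change was -0.58 ± 0.09 (adjusted p 9.14e-06, edgeR quasi-likelihood), and the plate differences were close to each other at -0.62, -0.56, -0.53 and -0.67. The fitted value stayed between -0.60 and -0.57 when any 1 plate was left out, and Crp passed in each of these fits.

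The promoters of 3 inflammatory genes that rose are shown because they hold a match to the consensus of NF-kB, an inflammatory transcription factor, and they were picked for that after the search. They are the 250 bases before the transcript start in RefSeq's rat assembly GRCr8, read 5′ to 3′ on the gene's strand, at chr3:36081781-36082030 (minus strand) for Lcn2, chr10:67513845-67514094 (plus strand) for Ccl7 and chr14:17467256-17467505 (minus strand) for Cxcl2. Capitals mark matches to the NF-kB consensus on either strand.
Lcn2: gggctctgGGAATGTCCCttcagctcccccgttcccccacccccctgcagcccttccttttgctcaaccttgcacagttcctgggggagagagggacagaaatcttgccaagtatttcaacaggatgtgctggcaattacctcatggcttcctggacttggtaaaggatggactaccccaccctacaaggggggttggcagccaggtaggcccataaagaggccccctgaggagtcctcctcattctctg
Ccl7: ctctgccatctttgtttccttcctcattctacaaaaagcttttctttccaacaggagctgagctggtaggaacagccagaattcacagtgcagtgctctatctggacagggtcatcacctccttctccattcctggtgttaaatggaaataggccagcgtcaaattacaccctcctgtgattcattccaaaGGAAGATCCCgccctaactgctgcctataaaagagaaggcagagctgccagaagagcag
Cxcl2: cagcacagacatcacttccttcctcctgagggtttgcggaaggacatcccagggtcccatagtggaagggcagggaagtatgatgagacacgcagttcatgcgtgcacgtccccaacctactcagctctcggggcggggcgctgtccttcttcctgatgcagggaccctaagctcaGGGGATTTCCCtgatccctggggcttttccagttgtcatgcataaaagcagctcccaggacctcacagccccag
Lcn2 and Ccl7 hold 1 match each, and Cxcl2 holds 2 that overlap. The consensus was found in 6.33% of all 33469 rat promoters in the table and in 18 of 130 promoters (13.8%) of the higher genes, which numbered 160, 56 of them without an entry. The ETS core AGGAAG, read by endothelial transcription factors, was found in 29.5% of all promoters and in 45 of the same 130 (34.6%). The STAT motif TTCNNNGAA was found in 7.67% of all promoters and in 7 of the 130 (5.38%), and all 3 motifs were searched on both strands. Orm1, Csf2 and Lyz2, which also rose, and Crp, which fell, had an entry without an NF-kB match. These are descriptions of sequence, and binding was not measured.

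Other genes with large differences were spread over signalling and progenitor functions. Sox9, a transcription factor of biliary and progenitor cells, was at 0, 19.6 and 137 CPM (lowest, median, highest) in monoculture and at 0, 33.6 and 514 CPM in co-culture. Co-culture was higher in 48 of 52 pairs, the highest wells being co-culture wells, with a log2 fold change of 1.07 ± 0.17 (adjusted p 9.14e-06, edgeR quasi-likelihood). The biliary keratin Krt19 had 50 and 29 counts in all and was not tested, and Sox9 was the single one of 5 cholangiocyte and progenitor probes to pass (list median 0.14). Among growth and paracrine factors, 3 of 17 probes were higher and 0 lower, with a median of 0.20. They were the platelet-derived growth factor Pdgfb at 0.98 ± 0.21, the activin subunit Inhba at 0.81 ± 0.21 and the Tek ligand Angpt2 at 0.63 ± 0.13, and without plate 7 the adjusted p was 0.053 for Pdgfb and 0.31 for Inhba (edgeR quasi-likelihood).

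The activin antagonist Fst rose by 0.96 ± 0.16 from a median of 7.43 to 15.4 CPM (adjusted p 3.83e-05, edgeR quasi-likelihood). The ligand Wnt11 rose by 1.11 ± 0.22, the calcitonin gene-related peptide Calcb by 1.08 ± 0.24, the metalloreductase Steap4 by 1.06 ± 0.19 and the intermediate filament protein Sync by 0.97 ± 0.21. Of these 5, Calcb and Sync lost the call without plate 5 or plate 7, with adjusted p of 0.08 and 0.28 without plate 5 and of 0.14 and 0.11 without plate 7 (edgeR quasi-likelihood). The invariant chain Cd74, which guides class II antigen presentation, rose by 0.74 ± 0.15 and the class II gene Rt1-db1 by 0.73 ± 0.19, the 2 of 10 antigen presentation probes that passed (list median 0.10). Their plate differences were 1.89 and 1.88 on plate 7, and without that plate the adjusted p was 0.53 and 0.74 (edgeR quasi-likelihood). The proliferation marker Mki67 rose by 0.65 ± 0.19 at medians of 2.48 and 4.01 CPM, 1 of 12 cell cycle probes (list median 0.06), and lost the call without plate 1, 5 or 7.

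Hepatocyte enzymes and transporters were lower in co-culture by small amounts. Of 34 probes for hepatocyte metabolism, 5 were lower and 0 higher, 3 lay above 0, and the median log2 fold change was -0.23. The summed level of the list had a median of 2081 CPM in monoculture (1242 to 3897) and 1730 CPM in co-culture (989 to 4079), and co-culture was higher in 9 of 52 pairs. The mean log2 ratio of this sum was -0.22, -0.33, -0.06 and -0.30 on plates 1, 3, 5 and 7. Cyp2c11, the male-specific steroid hydroxylase of rat liver, was at 25.5, 95.8 and 205 CPM (lowest, median, highest) in monoculture and at 17.5, 67.7 and 154 CPM in co-culture. The whole range was shifted down with wide overlap, co-culture was lower in 42 of 52 pairs, and the log2 fold change was -0.44 ± 0.09 (adjusted p 0.000956, edgeR quasi-likelihood). Cyp3a2, a broad drug-metabolising monooxygenase, was at 94.9, 291 and 801 CPM in monoculture and at 82.1, 211 and 702 CPM in co-culture. It fell by 0.54 on the log2 scale (SE 0.13, adjusted p 0.0083, edgeR quasi-likelihood), with co-culture lower in 41 pairs.

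The caffeine-metabolising enzyme Cyp1a2 fell by 0.55 on the log2 scale from a median of 58.3 to 39.8 CPM, with a difference of -0.07 on plate 3 and of -1.06 on plate 7. The bile acid importer Slc10a1 fell by 0.66 and the organic anion importer Slco1a1 by 0.46, both at median levels under 10 CPM. Without plate 7, 0 of the 34 probes were called by edgeR's quasi-likelihood test, with a median of -0.22, and without plates 1, 3 and 5 the calls were 3, 6 and 2. Of all 10253 probes tested without plate 7, 2 were called lower, so the loss of these calls is not particular to this list. Without plates 1, 3 and 5, 14, 61 and 9 of all probes tested were called lower. Cyp2e1, which oxidises ethanol, had a log2 fold change of -0.43 ± 0.15 (adjusted p 0.162, edgeR quasi-likelihood), and of -0.52 with an adjusted p of 0.0355 without the vehicle pair of plate 3. Outside this list, the fatty acid binding protein Fabp1 fell by 0.56, heparin cofactor Serpind1 by 0.59, the sulfotransferases ste2 and Sult1c3 by 0.64 and 0.63, the glutathione transferase Gsta5 by 0.43 and the glycogen-targeting phosphatase subunit Ppp1r3c by 0.48. All 6 lost the call without plate 7, with adjusted p from 0.16 for Serpind1 to 0.47 for Sult1c3 (edgeR quasi-likelihood).

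Secreted plasma proteins and hepatocyte transcription factors gave little. Of 22 probes for secreted proteins, 0 were higher and 1 lower, with a median of -0.14. Retinol-binding protein Rbp4 was at 535, 2505 and 5427 CPM in monoculture and at 477, 1782 and 3807 CPM in co-culture, and fell by 0.45 (adjusted p 0.0228, edgeR quasi-likelihood; 0.17 without plate 7). Albumin, Alb, was at 948, 4740 and 7307 CPM in monoculture and at 1623, 3997 and 7320 CPM in co-culture. These ranges were nearly the same, and the log2 fold change of -0.17 ± 0.09 did not pass (adjusted p 0.52, edgeR quasi-likelihood). Of 18 probes for hepatocyte transcription factors and nuclear receptors, 0 passed in edgeR's quasi-likelihood test (median -0.09), and Hnf4a, the central hepatocyte factor, had a log2 fold change of 0.08 ± 0.14 with a sign that turned in some of the other fits. Of 19 probes for stress and NRF2 targets, glutathione reductase Gsr alone passed, lower by 0.25 on the log2 scale (adjusted p 0.049, edgeR quasi-likelihood; 0.53 without plate 7), with a list median of -0.13. The 9 reference probes had 0 calls and a median of -0.0053. Of the lymphocyte list, Cd4 alone could be tested (0.05), and 0 of 15 probes for neutrophils, red cells and platelets had enough counts.

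The size of the differences varied between plates. The mean log2 ratio of summed endothelial markers was 0.19 ± 0.26 (SD, 13 pairs) on plate 1, 0.62 ± 0.63 on plate 3, 0.59 ± 0.31 on plate 5 and 0.96 ± 0.26 on plate 7. All 4 plates were above 0. Without the opposing vehicle pair the ratio of plate 3 was 0.75 ± 0.43 over 12 pairs. Plate 1 had the highest endothelial levels in both cultures, with medians of 257 and 299 CPM, and plate 7 the lowest, with 65.7 and 128 CPM. For stellate and mesenchymal markers the plate ratios were 0.18, 0.53, 0.63 and 0.63, with 0.71 on plate 3 without that pair. Hepatocyte metabolism was below 0 on all 4 plates, and at -0.44 on plate 3 without that pair. In fits of 1 plate at a time, 2 probes were called on plate 1, 0 on plate 3 (848 at an unadjusted p under 0.05), 37 on plate 5 and 252 on plate 7, by edgeR's quasi-likelihood test.

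**Figure D3:**
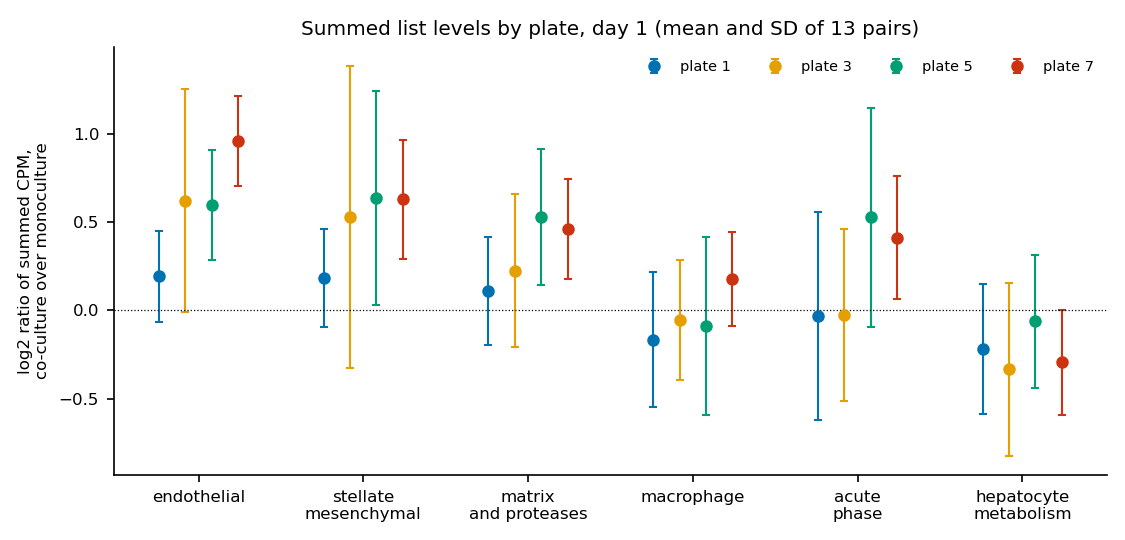
Summed level of 6 gene lists by plate, as the mean log2 ratio of co-culture over monoculture with the SD of 13 matched pairs. Endothelial, stellate and matrix sums lie above 0 on all 4 plates, endothelial from 0.19 on plate 1 to 0.96 on plate 7, and hepatocyte metabolism lies below 0 on all 4.

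The culture difference was read separately for each of the 13 compound-doses, with 4 pairs each. Summed endothelial markers were higher in co-culture in 13 of 13, from 0.22 ± 0.89 (SD, n = 4) in vehicle to 0.86 ± 0.37 with phenobarbital at 0.1 mM. Hepatocyte metabolism was lower in 10 of 13, with the lowest ratio of -0.53 ± 0.43 with gemfibrozil at 1000 µM and the highest of 0.14 ± 0.59 in vehicle. The vehicle values held the opposing pair of plate 3: the endothelial ratios of the 4 vehicle pairs were 0.37, -0.98, 0.34 and 1.17 on plates 1, 3, 5 and 7, and their metabolism ratios were -0.19, 0.99, 0.07 and -0.31. Without the pair of plate 3 the vehicle means were 0.63 ± 0.47 for endothelial markers and -0.14 ± 0.19 for hepatocyte metabolism (SD, n = 3). The lowest endothelial ratio was then 0.36 with gemfibrozil at 100 µM, and the highest metabolism ratio 0.06 with phenobarbital at 0.1 mM. In a fit of the vehicle wells alone, 0 of 9696 probes were called by edgeR's quasi-likelihood test (0%), with 448 at an unadjusted p under 0.05, and 123 of the 190 main calls that were tested kept their direction. Without the pair of plate 3, 182 of 193 kept it, and Lyz2, Lcn2, Ccl2 and Orm1 were called. That pair had been picked for going against these calls. The median of the hepatocyte metabolism list was 0.07 in vehicle wells alone and -0.13 without that pair.

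The difference between compound-doses was tested with 12 interaction terms together. It was called for 1 of 10220 probes (0.00978%) by edgeR's quasi-likelihood test, with 47 at an unadjusted p under 0.05. The 1 probe was Sgta, a co-chaperone, with an adjusted p of 0.000229, mean differences from -0.98 with gemfibrozil at 10 µM to 0.67 with phenobarbital at 1 mM, and no call without plate 1, 3 or 7. Between treated and vehicle wells, a different culture effect was called for 0 of 10220 probes (0%), with 115 at an unadjusted p under 0.05. Both unadjusted counts are smaller than chance alone gives at that threshold, so these tests were conservative here. The few calls do not show that the culture effect was alike across treatments. Without the vehicle wells, 162 probes were higher and 38 lower. Without the phenobarbital wells, 85 were higher and 13 lower, among fewer libraries.

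**Figure D4:**
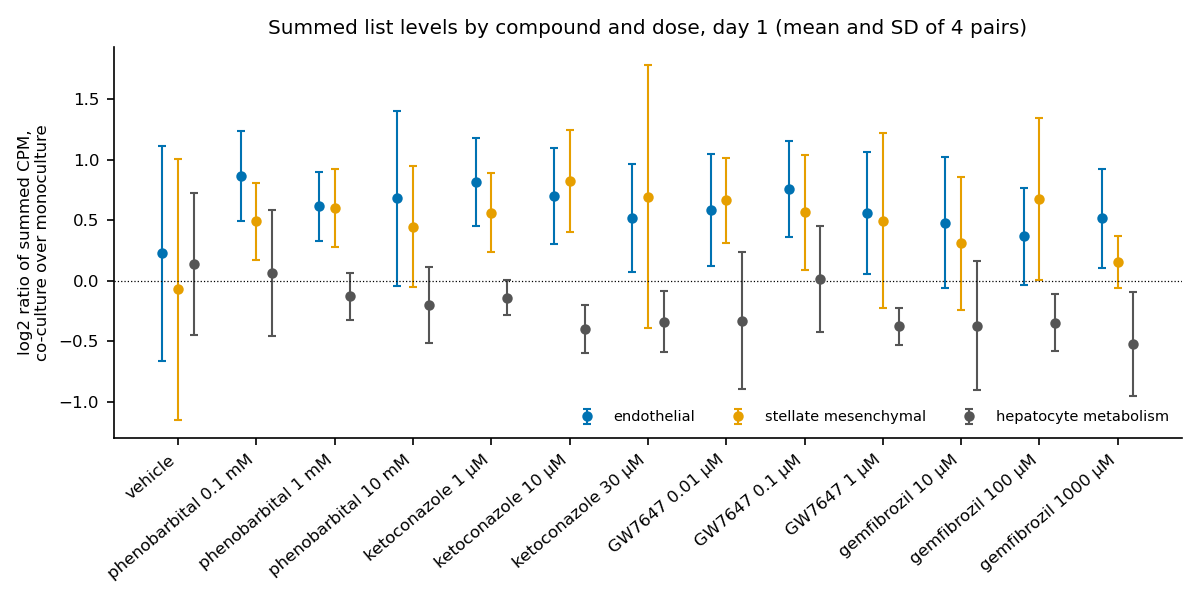
Summed level of 3 gene lists for vehicle and each compound-dose, as the mean log2 ratio of co-culture over monoculture with the SD of 4 matched pairs. Endothelial ratios are above 0 throughout, from 0.22 in vehicle to 0.86 with phenobarbital at 0.1 mM. The vehicle point includes the opposing pair of plate 3, without which it is 0.63 for endothelial markers and -0.14 for hepatocyte metabolism.

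The day 1 difference was set against days 3 and 7 in a joint fit of the whole series. Among 12303 probes, the culture effect differed from day 1 for 70 on day 3 (0.569%) and for 34 on day 7 (0.276%), by edgeR's quasi-likelihood test. These counts rested on plates as well, with 5 to 212 for day 3 and 0 to 106 for day 7 when 1 plate was left out. The 5 were without plate 5. The 0 was without plate 7, so no day 7 difference given below passed in that fit. Without plate 3, 0 probes had a called larger effect on day 7 and 7 a smaller one. Genes picked as high on day 1 lean towards a smaller effect later by that choice alone. Both differences use the same day 1 libraries. The 162 probes called higher on day 1 were also read on the other days, in libraries that played no part in choosing them. Their median log2 fold change was 0.10 on day 3 and 0.18 on day 7. On day 3, 58 of the 162 were below 0 and 22 were called higher, and on day 7, 31 were below 0 and 35 were called higher. Over all probes of this fit, 6171 were above 0 on day 3 and 6173 on day 7, and 1.17% and 1.63% were called higher. The 31 probes called lower had medians of -0.07 and -0.05, and 0 were called lower on day 3 or day 7. Of all 12303 probes in this fit, 4 were called lower on day 1 itself, 64 on day 3 and 1 on day 7. Most of the 31 were thus not called on day 1 in this fit either, so the 0 does not show a loss after day 1.

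The culture difference of Lcn2 declined over the days. Its log2 fold change in this fit was 1.46 on day 1, 0.68 on day 3 and 0.04 on day 7, its monoculture median was 644, 782 and 1102 CPM, and its co-culture median was 1854, 1211 and 1369 CPM. The difference between day 7 and day 1 was -1.42 ± 0.22 (adjusted p 1.14e-05, edgeR quasi-likelihood). For Ccl2 the log2 fold change was 1.35, -0.01 and -0.04 on days 1, 3 and 7, with differences from day 1 of -1.36 and -1.39 (adjusted p 0.020 and 0.033, edgeR quasi-likelihood). Sox9 had 1.08, 0.46 and 0.12, and its difference passed on day 7 (-0.95, adjusted p 0.0431, edgeR quasi-likelihood). Monoculture wells reached a median of 1008 CPM of Sox9 on day 7, from 20.1 CPM on day 1 in this fit. Lyz2 kept a large difference on day 3 (2.27) and had 0.98 on day 7, when medians were 270.0 CPM in monoculture and 631 CPM in co-culture. The difference of Lyz2 between day 7 and day 1 was -1.23 (adjusted p 0.0431, edgeR quasi-likelihood).

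Endothelial genes went separate ways. Flt4 had log2 fold changes of 0.74, -0.25 and 0.02 on days 1, 3 and 7. Both differences from day 1 passed (-0.99 with an adjusted p of 0.000203 and -0.72 with 0.0294, edgeR quasi-likelihood). Median Flt4 levels rose from 30.5 to 108 and 172 CPM in monoculture and from 50.5 to 111 and 166 CPM in co-culture, unlike those of Cdh5 and Pecam1. Cdh5 had 0.86, 1.14 and 1.95, Tek 0.83, 0.69 and 1.09 and Pecam1 0.87, 0.46 and 1.39, and none of their differences from day 1 passed in edgeR's quasi-likelihood test. Median levels of Cdh5 in monoculture were 5.57 CPM on day 1 and 0.766 CPM on day 7, and in co-culture 10.96 and 1.48 CPM. Over the endothelial list, 7, 8 and 13 of 23 probes were called higher on days 1, 3 and 7 in this fit, where 1.58%, 1.17% and 1.63% of all probes were. Of 23 macrophage probes, 1, 5 and 4 were called higher, with medians of 0.07, 0.53 and 0.58. Cd163 had 0.08, 0.70 and 0.65 on the 3 days, and its difference from day 1 was not called on either day. Col3a1, at -0.02 on day 1, was at 0.79 on day 7, a difference of 0.81 (adjusted p 0.0373, edgeR quasi-likelihood).

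**Figure D5:**
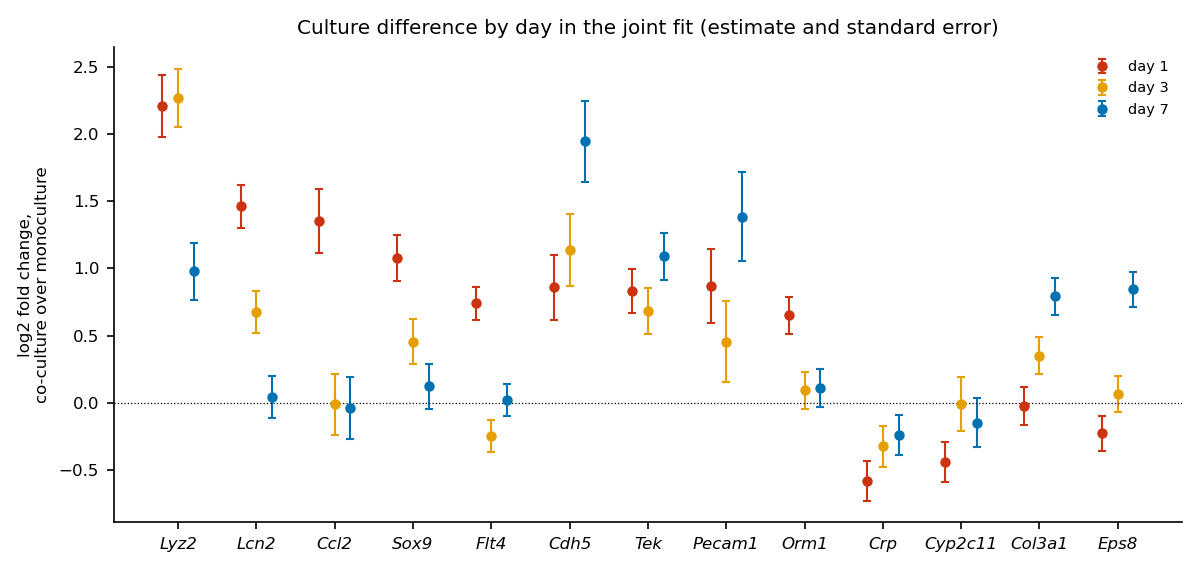
Log2 fold change of co-culture over monoculture on days 1, 3 and 7 for 13 genes, as the estimate and standard error of the joint fit over the whole series. Lcn2, Ccl2, Sox9 and Flt4 are near 0 by day 7, and Col3a1 and Eps8 have their highest value on day 7. Estimates of Lyz2, Cdh5, Tek and Pecam1 stay above 0, with Pecam1 not called on day 1 or day 3 in this fit.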

How the data were processed

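The authors deposited raw counts of each probe in each well, which the company that ran the assay generated per the labels. The submitters' processing notes name Bowtie. Its version is not given in the sources used here, nor are the build and the probes. Wells were grouped by the description, where 12 day 1 monoculture wells are phenobarbital while their compound label says ketoconazole. Phenobarbital doses follow the protocol (mM), as the dose label says µM. The table has 22253 probes, of which 1259 had no count on day 1. The genes, lists and comparisons were chosen with earlier results of these data known.

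The counts were fitted with edgeR 4.0.16 (R 4.3.3). Probes passed filterByExpr by culture with a minimum count of 10, and libraries were scaled by TMM. The design held compound-dose (13 levels), plate (4) and culture (87 residual degrees of freedom) in a two-sided quasi-likelihood test, with Benjamini-Hochberg adjustment over all 10220 probes tested and a threshold of 0.05. The standard error is the log2 fold change divided by the root of F. Levels are CPM on TMM-scaled libraries, as the lowest, median and highest of 52, and a prior count of 2 was added for log2 CPM. Summed list levels add the CPM of the probes tested, and log2 ratios of them, like plate and compound-dose differences of single genes, were taken within matched pairs. Days were compared in 1 fit of the whole series with compound-dose and plate within day as blocks. The fits were tested on simulated data.

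Pairing by plate was checked on log2 CPM minus the mean of each compound-dose and culture, with plate not removed. These values correlated by 0.231 on average within a plate (lowest plate 0.18), by -0.076 between plates and by 0.325 between matched wells. The numbers come from the plate in the labels. No libraries of the series held identical values.

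Genes to name were the 12 highest and 12 lowest called probes with the same sign on all 4 plates and at least 5 CPM on average in 1 culture, up to 5 members of each of 19 lists by p, the 5 smallest p of each difference between days or compound-doses, and a fixed set of marker genes (among them Cd163, Kdr, Acta2, Alb, Hnf4a and Il6). Lists are described by counts, medians and summed levels, with no test. Alternatives were DESeq2 1.42.0, limma 3.58.1 (voom with quality weights), RLE size factors, other filters and blocks, depth covariates, and fits without a plate, compound or dose. Fits of plates alone, of treated against vehicle wells and without the vehicle pair of plate 3 were added after seeing the data.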

Additional observations from a re-analysis of the deposited data

Results flagged for a closer look

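The culture effect of 15 named genes differed between day 3 and day 1 in the joint fit over the whole series, by edgeR's quasi-likelihood test with Benjamini-Hochberg adjustment. It was lower on day 3 by the following log2 differences for 14 of them: -0.99 for Flt4, -0.85 for Lbp, -0.63 for Schip1, -1.29 for Tesc, -0.73 for Myh10, -0.82 for Tp53i11, -1.09 for A2m, -1.15 for Tpm1, -1.28 for Wnt11, -1.36 for Calcb, -0.85 for Fst, -1.36 for Ccl2, -1.06 for Pdgfb and -1.16 for Steap4. For Gsta5 it was 0.96, from a lower level in co-culture on day 1. Between day 7 and day 1 it differed for 12 named genes, which were Lcn2 (-1.42), Bicc1 (-0.82), Tp53i11 (-0.78), Tesc (-1.19), Flt4 (-0.72), Ccl2 (-1.39), Wnt11 (-1.23), Lyz2 (-1.23), Sox9 (-0.95), Eps8 (1.07), Isg15 (1.04) and Col3a1 (0.81). Schip1, Tesc, Myh10, Tp53i11, Bicc1 and Eps8 were named only for the small p of such a difference, and Flt4, Lbp and Lcn2 partly so. Others were named in part because they were high on day 1. The counts of named genes are thus partly set by the choice. Over all 12303 probes of this fit, 0.569% were called for day 3 against day 1 and 0.276% for day 7 against day 1. Both differences share the day 1 libraries. Without plate 7, 0 probes were called for day 7 against day 1. For day 3 against day 1, 5 were called without plate 5, of which 3 had a smaller effect on day 3. The count was 20 without plate 7, 57 without plate 9, 65 without plate 3, 212 without plate 1 and 6 with no replicate block.

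The culture effect of Sgta differed between compound-doses on day 1, with an adjusted p of 0.000229 by edgeR's quasi-likelihood test over 12 terms.

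For the class II gene Rt1-db1, plate 7 stood apart from the other 3 plates with a mean log2 difference of 1.88. Chance sets a plate apart in this way in about 1 of 20 genes.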

How the results depend on the processing

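Of 57 of the called genes in the text, 57 were also called by DESeq2, by voom, by the matched-pair block and with depth covariates, 55 with RLE size factors and 14 without the plate block. Without 1 plate, 19 were called without plate 7, 34 without plate 5, 52 without plate 3 and 45 of 56 without plate 1. Without phenobarbital wells 39 were called, and in plate sums 0. In vehicle wells alone 0 were called, and 4 when the pair of plate 3 was also left out. The direction of the 193 called probes was kept in every alternative that tested them, except the fits of vehicle wells alone. Single plates were not compared in this way, and all these fits share libraries with the main one. Main calls were 193. They were 1366 by limma voom with quality weights, 371 with depth and complexity as covariates, 98 without phenobarbital, 4 in vehicle wells alone without the pair of plate 3, and 2, 0 and 37 on plates 1, 3 and 5 alone. On replicate blocks, calls were 377 with the matched pair as block, 29 with no replicate block, 0 in plate sums with the block and 0 in vehicle wells with the block. Leaving out 1 plate gave 34 to 259 calls, and 0 to 6 in plate sums (6 without plate 1). For day 3 against day 1 the count was 70, 6 with no replicate block and 5 to 212 without 1 plate, and for day 7 it was 34, 1 and 0 to 106. The compound-dose difference gave 0 with no replicate block and 0 to 1 without 1 plate. The planned minimum of total counts left out no library. The causes of these shifts were not tested.

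Some gene values changed sign. In vehicle wells alone these were Lyve1 -0.32, Crp 0.15, ste2 0.10, Cyp2c11 0.23, Tagln -0.16, Serpind1 0.19, Cyp3a2 0.12, Fabp1 0.27, Slc10a1 0.069, Cyr61 -0.064, Gsta5 0.033, Inhba -0.21, Slco1a1 0.37, Rbp4 0.049, Sult1c3 0.36, Alb 0.0013, Cyp2e1 0.20, Hnf4a -0.27, Cd68 0.022, Col3a1 0.0043, Tesc -0.20, Tp53i11 -0.060, Myh10 -0.38 and Sgta 0.20. Without the pair of plate 3 in the vehicle wells they were Lyve1 -0.13, Slco1a1 0.040, Hnf4a -0.20, Marco -0.13, Myh10 -0.068, Col3a1 0.20 and Sgta 0.32. When 1 plate was left out, values ran from -0.25 to 0.30 for Cd163, from -0.22 to 0.22 for Marco, from -0.39 to 0.027 for Cd68, from -0.010 to 0.27 for Hnf4a and from -0.10 to 0.090 for Col3a1. With no replicate block Cd163 was -0.026, by voom Col3a1 was 0.081 and Sgta 0.043, and without the highest doses Col3a1 was 0.057.

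Depth limits genes near 1 CPM, such as Sox18 and Csf2, where several monoculture libraries had 0 counts.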
